A study of Mus musculus with 30 samples.

Results

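The 1765 satellite repeat copies of the mouse genome listed in a TT-seq time course are described here, out of 319797 single repeat copies and 382367 transcription units in all. They were taken by name and class from the repeat annotation that the deposited table carries: 778 copies of IMPB_01, 613 of MMSAT4, 293 of ZP3AR, 55 of GSAT_MM, 13 of SYNREP_MM, 10 of MurSAT1, 2 of SUBTEL_sa and 1 of (CATTC)n. No measured value was used to choose them. The 55 copies of GSAT_MM, the repeat name for the mouse major satellite, were compared with the 1710 copies of the other names.

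TT-seq labels cells briefly with 4-thiouridine and sequences only the labelled RNA, so it reads transcription rather than stored RNA. All samples came from 1 mouse embryonic stem (ES) cell line, dTKO, whose genotype label reads Suv39h1fl/fl ; Suv39h2-/- ; Setdb1fl/fl. The cells were collected at 0, 3, 12, 24 or 48 h of treatment with 100 µg/ml auxin and 0.5 µM dTAG13, agents that trigger the breakdown of proteins carrying a degron tag, and the design text takes the 0 h cells of the same line as the baseline. The treatment label of the 0 h samples names both agents too. There were 3 biological repeats a time, each sequenced in 2 runs that count as 1 library, so 15 libraries in all. The genotype is shared by every sample, no line without degrons was compared here, and the labels name no protein as the tagged one. The design text states that the aim is to follow transcription as histone H3 lysine 9 (H3K9) methyltransferases are ablated. The Suv39h2 gene unit nevertheless had 749.6, 881.6 and 778.6 scaled reads (reads divided by 1 deposited factor a library) at 48 h, against 1044, 1175 and 1055 at 0 h, so signal over the whole unit goes against a label of Suv39h2-/- read as a loss of its transcription. The labels do not say which part of the gene is deleted.

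Satellite repeats are short sequences repeated head to tail in long arrays. In the mouse the major satellite fills the pericentromeric heterochromatin, which SUV39H enzymes mark with H3K9 trimethylation and which HP1 proteins bind, and its transcripts are normally scarce. SETDB1 is the H3K9 methyltransferase best known for silencing endogenous retroviruses with the corepressor TRIM28. The pericentromeric arrays are largely missing from the assembled genome, so the annotated copies are fragments at array edges, on unplaced scaffolds and at scattered sites. A repeat name is therefore a sequence class, and a single copy's value can hold reads from other units of the same sequence.

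The sequence shows how alike these fragments are. Of the 13 GSAT_MM copies with enough signal to test, 4 overlap an annotated coding or lincRNA exon for long enough to read 1 whole repeat unit from GENCODE M21 transcripts (GRCm38). In the longest such stretch, 586 bases on chromosome 9, 92.9% of bases equalled the base 234 positions further on, against a median of 30.8% over offsets of 20 to 300, so 234 bases is the repeat unit. A unit from each is shown because these 4 copies carry much of the signal described below. Each is written 5′ to 3′ on the annotated strand of the copy, with the CpG dinucleotides, the sites of DNA methylation, in capitals.
chr2:98666735-98666968 (+ strand): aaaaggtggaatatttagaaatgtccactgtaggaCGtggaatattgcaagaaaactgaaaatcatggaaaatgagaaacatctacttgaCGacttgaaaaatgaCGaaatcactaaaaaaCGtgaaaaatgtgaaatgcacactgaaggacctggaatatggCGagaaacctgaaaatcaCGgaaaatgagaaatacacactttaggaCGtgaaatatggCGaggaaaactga
chr2:98662267-98662500 (- strand): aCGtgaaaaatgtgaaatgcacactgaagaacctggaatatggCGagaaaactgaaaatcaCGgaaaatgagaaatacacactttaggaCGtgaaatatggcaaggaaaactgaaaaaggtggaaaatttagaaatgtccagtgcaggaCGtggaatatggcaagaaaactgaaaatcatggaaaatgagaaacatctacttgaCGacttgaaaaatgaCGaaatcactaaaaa
chr9:3038080-3038313 (- strand): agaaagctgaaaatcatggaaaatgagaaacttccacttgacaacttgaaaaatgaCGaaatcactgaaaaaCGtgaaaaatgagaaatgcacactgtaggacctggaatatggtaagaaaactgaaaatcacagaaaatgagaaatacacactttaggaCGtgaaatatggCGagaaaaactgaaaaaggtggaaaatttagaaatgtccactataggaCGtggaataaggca
chr14:19417133-19417366 (+ strand): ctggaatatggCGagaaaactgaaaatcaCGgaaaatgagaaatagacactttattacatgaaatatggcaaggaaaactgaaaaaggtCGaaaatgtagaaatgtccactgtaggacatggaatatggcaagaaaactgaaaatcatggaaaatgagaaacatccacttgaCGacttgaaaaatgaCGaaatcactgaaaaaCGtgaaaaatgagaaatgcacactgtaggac

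After rotation to the best ungapped register, pairs of these units were 92.7% to 97.0% identical over 234 bases (6 pairs), with a GC content of 35.0% to 36.3% and 5 to 8 CpGs each. The first 234 bases of 32851 RefSeq promoter windows (GRCm38.p6) had a median GC content of 52.1% and a median of 5 CpGs. The ratio of observed to expected CpG had a median of 0.929 in the GSAT_MM units and 0.371 in the promoter windows. The core of the CENP-B box, the site bound by a centromere protein, was searched on both strands as NTTCGNNNNANNCGGGN and was in 0 of the 4 units and in 0.0426% of promoter windows. The heat shock element GAANNTTC was in 1 of the 4 units, the chromosome 9 one, and in 6.13% of promoter windows.

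MMSAT4 is a different kind of member. Of its 613 copies, 425 (69.3%) overlap a GENCODE exon and 471 lie in a gene on the same strand, 155 of them in a gene with a zinc-finger name (Zfp, Zkscan, Zscan or Zik). Such genes encode DNA-binding proteins with arrays of C2H2 zinc fingers, many of which recruit TRIM28 and SETDB1 to retroviral sequences. In its longest readable coding stretch, 1905 bases on chromosome 13, 84.2% of bases equalled the base 84 positions on and 84.3% the base 168 positions on, against a median of 27.6% over offsets of 20 to 300. The 66 MMSAT4 windows of 234 bases that could be read were 32.9% to 40.6% identical to the GSAT_MM units and held a median of 1 CpG. A stretch from the coding exon of Zfp965, which fell, and one from Zfp985, which rose, are shown with CpGs in capitals.
chr2:175479721-175479954 (+ strand, Zfp965): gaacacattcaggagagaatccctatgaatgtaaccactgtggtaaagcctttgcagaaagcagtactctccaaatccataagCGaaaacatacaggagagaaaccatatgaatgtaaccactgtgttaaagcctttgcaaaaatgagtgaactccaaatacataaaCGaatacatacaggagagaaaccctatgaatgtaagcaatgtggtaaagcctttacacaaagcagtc
chr4:147583203-147583436 (+ strand, Zfp985): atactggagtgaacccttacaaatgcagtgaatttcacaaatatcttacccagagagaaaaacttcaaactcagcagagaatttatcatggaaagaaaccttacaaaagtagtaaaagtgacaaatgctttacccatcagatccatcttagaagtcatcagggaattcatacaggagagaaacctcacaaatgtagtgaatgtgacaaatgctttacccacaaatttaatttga

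The other names were placed differently. Of the GSAT_MM copies 47 of 55 were intergenic, while IMPB_01 and ZP3AR copies were split between introns (46.3% and 46.1%) and intergenic sequence (51.2% and 48.8%). Copies were mostly short, with median lengths of 99 bases for IMPB_01, 204 for ZP3AR, 306 for MMSAT4, 342 for SYNREP_MM and 2030 for GSAT_MM.

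Each library held 37.1 to 42.3 M recovered reads over all units, 16939 to 32720 over satellite copies and 1356 to 15600 over GSAT_MM. Values below are scaled reads, and levels of different lengths are compared only per kilobase. The 24 h replicate 2 library had the highest signal of its time over the satellites other than GSAT_MM, 17570 scaled reads against 12812 and 12515 in the other 24 h libraries, and results on GSAT_MM at 24 h are therefore also given relative to the other satellites within each library. All 8 ES cell markers checked, among them Pou5f1 and Nanog, had a mean of at least 10 scaled reads. Their summed level was 10213 to 10675 scaled reads at 48 h and 15565 to 17300 at 0 h. Of 5 primitive endoderm markers 4 had a mean of at least 10, Sox17 being the exception, and the list summed to 449 to 509 scaled reads at 48 h and 414 to 454 at 0 h. Of 5 trophectoderm markers 4 did, Elf5 being the exception, and the list summed to 843 to 1028 at 48 h and 857 to 878 at 0 h. All 5 fibroblast markers did, and the list summed to 335 to 471 scaled reads at 48 h and 257 to 318 at 0 h. The part of these markers in the satellite results was not tested. In bulk libraries, fewer cells with signal and less signal per cell cannot be told apart.

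In 3 libraries many MMSAT4 copies are listed at 0. Of the 187 MMSAT4 copies with enough signal to test, 17 were at 0 in the 0 h replicate 3 library, 43 in the 3 h replicate 3 library and 14 in the 24 h replicate 3 library, against 0 to 6 in each of the 12 other libraries. These shares were 9.09%, 22.99% and 7.49%, where 11.6%, 8.74% and 0.784% of all tested copies were at 0. The 0 h share was thus below that of all tested copies. It was high only beside 0 h replicates 1 and 2, with 0.535% and 1.07% of MMSAT4 copies at 0. In those 2 libraries 10.9% and 10.4% of all tested copies were at 0. Of the 187 MMSAT4 copies, 10 were at 0 in exactly the 3 replicate 3 libraries named, and 27 in the 3 h one alone. Another MMSAT4 copy, chr12:23614375-23614844, had 76.3, 76.0 and 90.2 scaled reads in the 0, 3 and 24 h libraries of this set and 0 to 15.8 in the others. No tested GSAT_MM copy was at 0 in the 3 libraries, and the cause was not tested. Without the 3 libraries, the log2 change of GSAT_MM was 0.69 at 12 h, 2.04 at 24 h and 3.26 at 48 h (limma adjusted p = 1.59e-05, 1.29e-36 and 1.78e-108), an alternative chosen after seeing the data.

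GSAT_MM rose strongly and in steps. The 3 libraries had, summed over its 55 copies, 1102, 1200 and 1222 scaled reads at 0 h and 1104, 909 and 1086 at 3 h. They had 1647, 2063 and 1876 in 12 h cells and 3994, 5585 and 4091 in 24 h cells. The 48 h libraries reached 11521, 11070 and 10527. The 0 h and 3 h libraries overlapped, and from 12 h every library was above every library of the earlier times. At 48 h the mean was 11039 ± 497 scaled reads and at 0 h 1175 ± 64 (SD, n = 3 each), a ratio of 9.40. Per kilobase this was 55.5 at 48 h and 5.90 at 0 h. Tested with limma among 774 repeat families, the log2 change of 3 h over 0 h was -0.19 (SE 0.12, adjusted p = 0.240). It was 0.66 (adjusted p = 4.45e-07) for 12 h, 1.94 (adjusted p = 5.19e-56) for 24 h and 3.23 (SE 0.12, adjusted p = 2.08e-150) for 48 h. The shares of all tested families called higher at 3, 12, 24 and 48 h were 1.55%, 32.9%, 24.4% and 23.4%, and the median change of all families at 48 h was 0.01. The SE and p values use a spread drawn toward a trend over all families, which share the same 15 libraries. Their size is therefore not a measure of the spread of GSAT_MM alone. With libraries rescaled so that the median gene does not change, the 48 h change was 3.59 (limma adjusted p = 2.37e-31).

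Each step from 3 h on was itself called. The log2 change was 0.85 from 3 to 12 h, a step at which 77.8% of all families were called higher, 1.28 from 12 to 24 h, where 6.85% were, and 1.29 from 24 to 48 h, where 4.01% were (SE 0.12 each; limma adjusted p = 2.29e-11, 4.31e-24 and 2.23e-24).

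**Figure D1:**
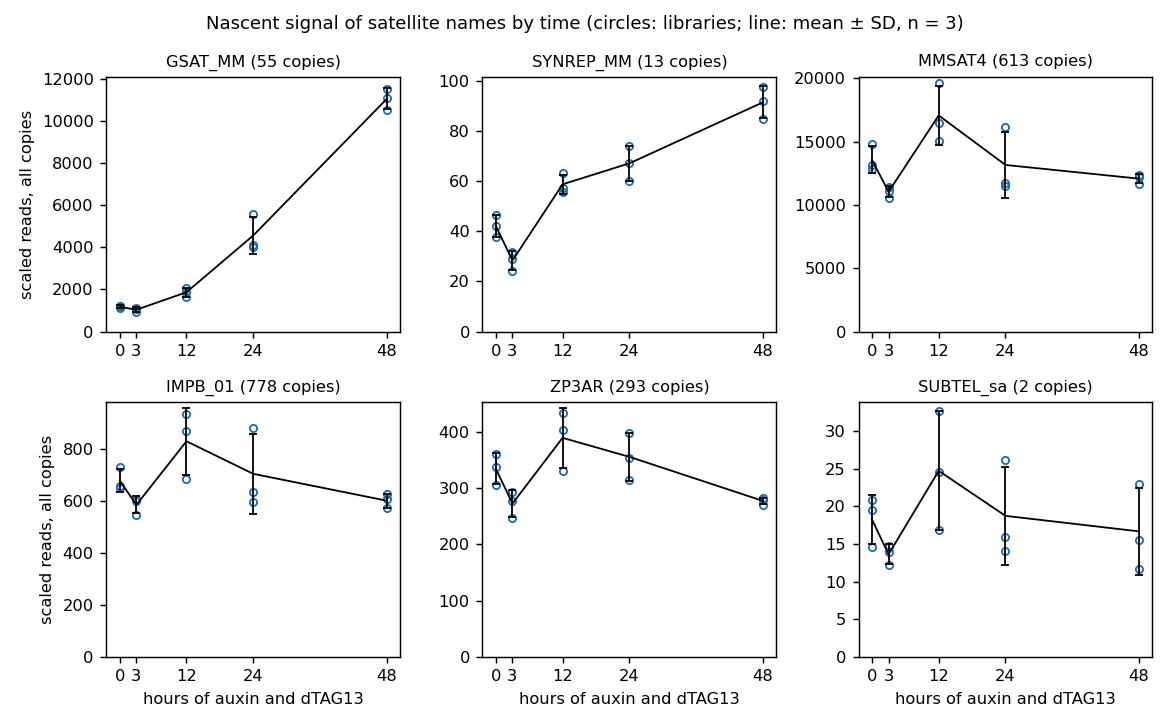
Scaled reads summed over all copies of each of the 6 satellite names with a mean of at least 10, against hours of auxin and dTAG13. Circles are libraries and lines give the mean ± SD of 3 libraries. GSAT_MM climbs to 11039 at 48 h and SYNREP_MM to 91.5, while MMSAT4, IMPB_01, ZP3AR and SUBTEL_sa have their highest mean at 12 h.

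SYNREP_MM was the other name whose family rose at 48 h. Its 13 copies summed to 97.5, 92.2 and 84.8 scaled reads at 48 h, against 42.3, 46.6 and 37.7 at 0 h, with no overlap. The log2 change was 1.10 (SE 0.20, adjusted p = 1.37e-07) at 48 h and 0.66 (adjusted p = 0.00388) at 24 h. At 12 h it was 0.47 (adjusted p = 0.0486), a call lost under 19 of 31 other settings, among them without the 3 libraries above (adjusted p = 0.184). The rise lay mainly in 2 of the 3 copies on chromosome 2, among the GSAT_MM copies there. Together the 3 summed to 75.8 ± 7.4 scaled reads at 48 h and 32.7 ± 5.4 at 0 h. The remaining copy of the 3, chr2:98662469-98662826, averaged 7.75 at 48 h and 9.68 at 0 h, and its libraries overlapped. The 10 copies elsewhere summed to 15.7 ± 3.2 at 48 h and 9.45 ± 1.02 at 0 h.

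The 4 remaining tested names did not pass the test at 48 h. MMSAT4, which held 85.7% of all satellite signal at 0 h, averaged 12067 ± 372 scaled reads at 48 h and 13564 ± 1070 at 0 h (SD, n = 3 each). Its log2 change at 48 h was -0.17 (adjusted p = 0.311), and +0.20 (adjusted p = 0.00039) when the libraries were rescaled so that the median gene does not change. The log2 value of IMPB_01 was -0.17 (adjusted p = 0.337) and +0.19 (adjusted p = 0.00641) after rescaling, of ZP3AR -0.27 (adjusted p = 0.152) and +0.095 after rescaling, and of SUBTEL_sa -0.16 (adjusted p = 0.732) and +0.18 after rescaling. The direction of these 4 names at 48 h thus turns with the scaling. The median of all 15261 tested genes at 48 h was -0.37 under the deposited scaling, and the median of all families moved to 0.37 under the rescaling. At 12 h MMSAT4 was higher by 0.32 (adjusted p = 0.0210), next to a median of 0.29 over all families. That call was lost in 5 of 31 other settings: without an intensity trend (adjusted p = 0.101), without the 3 libraries that list many copies at 0 (0.100), and on leaving out 0 h replicate 1 (0.120), 0 h replicate 3 (0.0885) or 12 h replicate 2 (0.196). MurSAT1 (mean 2.01 scaled reads at 48 h and 4.75 at 0 h) and the single (CATTC)n copy, with no read at either time, were below the minimum of 10 and not tested.

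The difference between GSAT_MM and the other satellites was tested within each library, which removes the library's scaling. At 0, 3, 12, 24 and 48 h GSAT_MM made up 7.44%, 7.95%, 9.22%, 24.2% and 45.8% of the satellite signal. The log2 ratio of GSAT_MM to the sum of all other satellites, which is mostly MMSAT4, averaged -3.64, -3.53, -3.30, -1.65 and -0.24 at these times, with SDs of 0.03 to 0.10. Relative to 0 h it differed by 0.10 (adjusted p = 0.413) in 3 h cells, 0.34 (adjusted p = 3.94e-05) in 12 h cells, 1.99 (adjusted p = 1.04e-22) in 24 h cells and 3.39 (SE 0.06, adjusted p = 8.34e-29) in 48 h cells. Of all families set against the same sum, 6.20%, 16.0%, 34.4% and 38.1% were called higher at 3, 12, 24 and 48 h. SYNREP_MM also rose relative to that sum, by 0.71 (adjusted p = 0.000337) after 24 h and 1.26 (adjusted p = 3.37e-08) after 48 h. IMPB_01, ZP3AR and SUBTEL_sa differed by -0.10 to 0.13 at 24 and 48 h and did not pass the test. MMSAT4 is most of the sum itself, so its ratio is not given.

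The single copies give the detail. Of the 55 GSAT_MM copies 13 had a mean of at least 10 scaled reads over all libraries and were tested, and 8 of them also reached 10 at 0 h. The other 5 passed the minimum only through their later values. Of 13519 tested repeat copies of all classes, 26.0% were called higher and 12.3% lower at 48 h. Of the 13 GSAT_MM copies 12 were called higher and 1 lower, and of the 8 that reached 10 at 0 h, 7 were higher and 1 lower.

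The copy with the most signal, chr2:98666545-98667332 on the plus strand (788 bases, over exons of the predicted gene Gm10800 on the other strand), had 3633, 3391 and 3322 scaled reads at 48 h, against 145, 148 and 140 at 0 h. Its log2 change was 4.57 (SE 0.16, adjusted p = 1.11e-11). It was also the densest GSAT_MM copy at 48 h, with 4376 scaled reads per kilobase. At 0 h it had 183, below the 485 of chrUn_JH584304:60179-60873. Nearby, chr2:98662235-98662500 on the minus strand, over the predicted gene Gm10801, had 922, 849 and 736 scaled reads at 48 h, against 30.1, 43.3 and 33.4 at 0 h, a change of 4.53. Another copy of that cluster, chr2:98662828-98662993, had 57.6, 55.8 and 58.1 at 48 h, against 2.44, 1.66 and 2.57 at 0 h. In each of these copies the 48 h libraries all lay above the 0 h libraries, with no overlap. The last of them passed the minimum only through later times, so its values are a description.

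The longest blocks rose too. The 38417-base block at the proximal end of chromosome 9, chr9:3000003-3038419, which also holds the lincRNA gene Gm26870, had 1993, 1982 and 1770 scaled reads at 48 h, against 75.6, 84.8 and 85.7 at 0 h (log2 change 4.53, adjusted p = 1.32e-11). The 47055-base block chrUn_JH584304:67398-114452 on an unplaced scaffold had 1919, 1817 and 1757 at 48 h, against 67.5, 93.2 and 80.6 at 0 h (4.50). The copy chr14:19415683-19419702, opposite the predicted gene Gm21738, had 1080, 1028 and 976 at 48 h, against 34.1, 35.8 and 36.0 at 0 h, and its change of 4.82 was the largest of the 13. Their density was lower than that of the short chromosome 2 copies, at 49.9, 38.9 and 256 scaled reads per kilobase at 48 h and 2.14, 1.71 and 8.78 at 0 h.

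Weaker copies rose too. The scaffold copies chrUn_GL456389:8132-13964, chrUn_GL456396:9263-15626, chrUn_GL456383:26986-30132 and chrUn_GL456393:4961-10593 rose by 4.37, 4.09, 4.02 and 3.42 on the log2 scale, with means of 287, 76.7, 69.6 and 37.0 scaled reads at 48 h and 13.3, 3.91, 3.34 and 2.49 at 0 h. The copy chr12:3109872-3110121 had 77.5, 107 and 81.0 scaled reads at 48 h, against 5.69, 9.98 and 5.14 at 0 h (3.53, adjusted p = 0.00149). It and the scaffold copies with a mean under 10 at 0 h passed the minimum only through later times, so their tests are a description.

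At 3 h, limma called 0 of the 210 tested satellite copies, with 2.50% of all repeat copies called higher and 0.266% lower. edgeR and DESeq2 also called 0. At an unadjusted p under 0.05, 2 satellite copies were higher and 25 lower at 3 h. The shares of all tested copies at that threshold were not worked out. The median change of all tested copies at 3 h was -0.18, and 0.02 after rescaling over genes. At 12 h, 9 GSAT_MM copies were called higher, where 20.8% of all copies were higher and 1.83% lower. At 24 h 12 were, where 25.4% were higher and 6.25% lower. Both counts include copies among the 5 that passed the minimum only through their later values. With a minimum at 0 h alone the 24 h count was 7. In the authors' deposited table, 0, 7, 15 and 25 of the 55 copies were called up at 3, 12, 24 and 48 h, where that table calls up 0.131%, 0.948%, 1.81% and 2.48% of all 319797 repeat copies. It calls 0 GSAT_MM copies down at any of the 4 times.

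**Figure D2:**
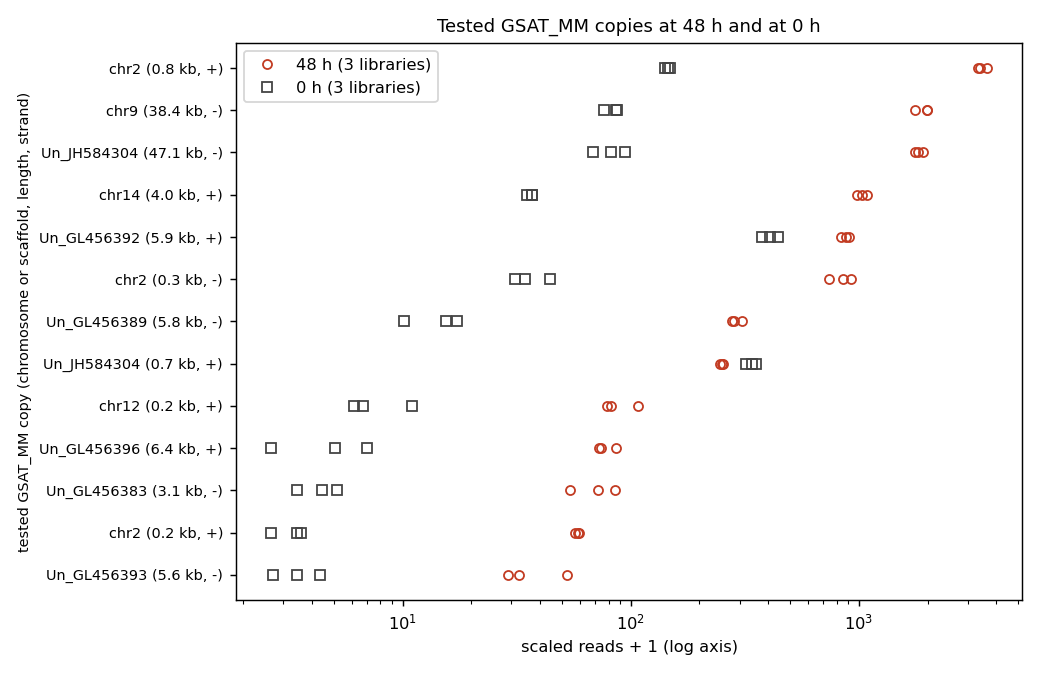
Scaled reads plus 1, on a log axis, of each of the 13 tested GSAT_MM copies in the 3 libraries at 48 h (red circles) and the 3 at 0 h (grey squares). The libraries of the 2 times do not overlap in any of the 13, and only the 0.7 kb copy on chrUn_JH584304 is lower at 48 h. Of the 13, 5 passed the minimum only through their later values, so this is a description. Of all repeat copies with any signal, 7.29% had all 48 h libraries above all 0 h libraries and 6.53% below. The shares among tested copies were not worked out.

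The 42 GSAT_MM copies below the minimum were thin, with 956 reads in all at 48 h and 73 at 0 h over 3 libraries each. In 25 of them every 48 h library was above every 0 h library, and in 17 the libraries overlapped. Over all 55 copies, 37 had all 48 h libraries above all 0 h libraries and 1 had them below, where 7.29% of all repeat copies with any signal were above and 6.53% below. Among the names with more than 100 copies, 21 MMSAT4 copies of 609 with signal were above and 65 below, 18 IMPB_01 copies of 756 above and 32 below, and 7 ZP3AR copies of 291 above and 25 below.

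GSAT_MM copies differed in 1 marked way: 2 copies held most of the signal at 0 h and changed least of the 13 tested. The copy chrUn_JH584304:60179-60873, 695 bases on the plus strand and 489 bases from the annotated gene AC149090.1, had 250, 253 and 245 scaled reads at 48 h, against 319, 340 and 352 at 0 h. All 48 h libraries were below all 0 h libraries, and the log2 change was -0.44 (SE 0.14, adjusted p = 0.0252), a call lost in 9 of 30 other settings: after rescaling, with TMM, without an intensity trend, without the 3 libraries that list many copies at 0, and without 0 h replicate 2 or 3 or any 1 of the 48 h libraries. The gene unit Pisd-ps3 on the same scaffold averaged 2183 ± 144 scaled reads at 48 h and 2307 ± 24 at 0 h (log2 change -0.08, adjusted p = 0.561). The copy chrUn_GL456392:17701-23627, 5927 bases on the plus strand, had 837, 880 and 903 at 48 h, against 374, 406 and 442 at 0 h, a change of 1.10 (adjusted p = 4.09e-05). The 11 other tested copies changed by 3.42 to 4.82. This pair was singled out after the values were seen, so its contrast with the rest is a description.

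Together the 2 copies held 63.4%, 58.8%, 41.9%, 19.5% and 10.2% of GSAT_MM signal at 0, 3, 12, 24 and 48 h. The 53 other copies summed to 10434, 9938 and 9380 scaled reads at 48 h, against 409, 454 and 427 at 0 h, a ratio of 23.1 in place of 9.40 over all 55. Without the 2 copies the log2 ratio to the other satellites averaged -5.09, -4.82, -4.08, -1.96 and -0.40 at these times, and the difference at 3 h became 0.27 (limma adjusted p = 0.0132). GSAT_MM itself did not pass the test there, with a log2 change of -0.03 (adjusted p = 0.881) without the 2 copies, and MMSAT4, most of the sum it is set against, had -0.30 (adjusted p = 0.113).

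Plus-strand and minus-strand copies differed in their rise. Each copy is listed with its annotated strand, and whether only reads of that strand were counted is not stated. The 28 plus-strand GSAT_MM copies summed to 5928 ± 180 scaled reads at 48 h and 949 ± 49 at 0 h. The 27 minus-strand copies summed to 5111 ± 320 at 48 h and 226 ± 20 at 0 h. The log2 ratio of plus to minus averaged 0.35 ± 0.15 in the 6 libraries at 24 and 48 h and 1.98 ± 0.18 in the 6 at 0 and 3 h (SD), a difference of -1.63 (two-sided exact permutation p = 0.0022, the smallest it can give). At 48 h against 0 h alone the difference was -1.86, and the exact permutation p of 0.10 is the smallest that 3 against 3 can give. Both of the copies that changed least are plus-strand. Without them the ratio averaged -0.10 ± 0.04 in the later and -0.12 ± 0.08 in the earlier libraries, a difference of 0.02. The pair was chosen for changing least, so this second difference is a description.

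**Figure D3:**
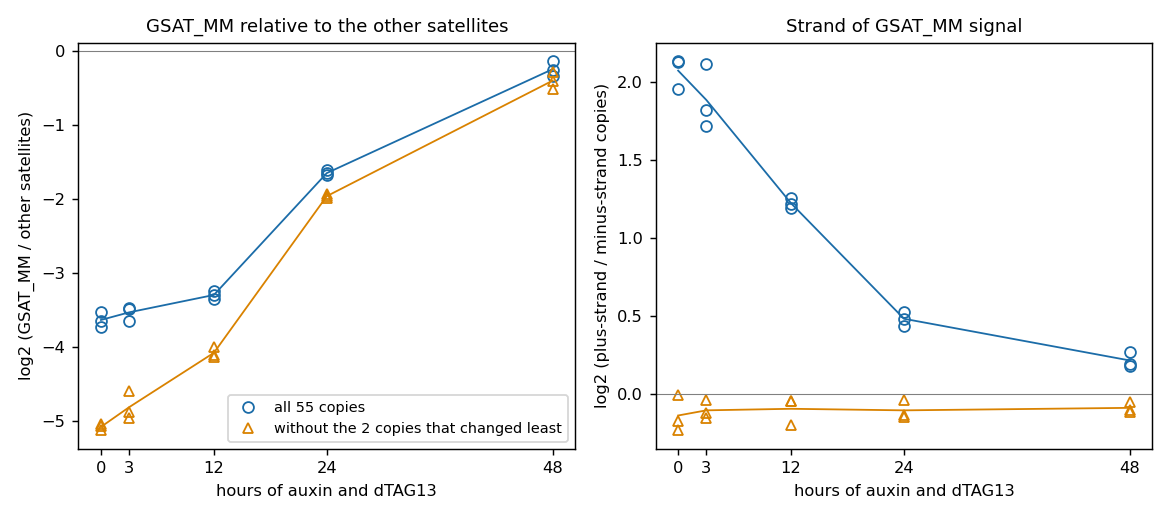
Left, log2 ratio of GSAT_MM to all other satellites in each library, and right, log2 ratio of plus-strand to minus-strand GSAT_MM copies, both against hours of treatment, with lines through the means of 3 libraries. With all 55 copies (blue) the strand ratio falls to 0.22 at 48 h, against 2.07 at 0 h, and without the 2 copies that changed least (orange) it lies between -0.23 and -0.01 in all 15 libraries.

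By place, signal was summed over copies in each library, and the places cover different lengths, so their levels are not compared. The 11 copies elsewhere on chromosomes (17.1 kb) summed to 5407 ± 309 scaled reads at 48 h and 225 ± 11 at 0 h. The 5 copies within 4 Mb of a chromosome start, the centromeric end of mouse chromosomes, cover 45.1 kb. They summed to 2017 ± 135 at 48 h and 91.5 ± 6.2 at 0 h. The 39 copies on unplaced scaffolds (136.9 kb) include the 2 that changed least. They summed to 3615 ± 78 at 48 h and 859 ± 55 at 0 h.

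Non-coding units, which the authors list separately, overlap some of these copies. Of 11 pairs of a copy and a unit on its strand, 10 moved the same way at 48 h and 1 did not. That 1 is a pair on chromosome 12, in which the copy averaged 0.25 at 48 h and 0.54 at 0 h. Its unit averaged 1.74 at 48 h and 0 at 0 h. Each pair covers shared sequence, some copies and units are in more than 1 pair, and some pairs hold few reads. The share over all repeat copies was not worked out, so the count is a description. The unit chr2:98666201-98667401 on the plus strand averaged 3989 scaled reads at 48 h and 183 at 0 h, close to the copy inside it. The unit chr14:19415601-19419601, on the strand of its copy, averaged 308 at 48 h and 13.7 at 0 h. Elsewhere unit and copy differed in level: the unit chr9:35305201-35305601 averaged 1272 at 48 h and 517 at 0 h, while the GSAT_MM copy chr9:35305206-35305609 on the same strand averaged 28.0 in 48 h cells and 5.85 in 0 h cells. Neither labels nor headers state how reads were shared between such units.

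The named copies of the other satellites were mixed. Some of them, marked by a mean under 10 at 48 h or at 0 h, passed the minimum only through the times at which they were higher, so their tests are given as a description. The SYNREP_MM copy chr2:98664881-98665222, between the GSAT_MM copies of the chromosome 2 cluster, had 31.0, 29.4 and 29.8 scaled reads at 48 h, against 6.50, 1.66 and 3.43 at 0 h (log2 change 2.80, adjusted p = 0.000444). Its neighbour chr2:98666205-98666525 had 39.9, 41.8 and 32.1 at 48 h, against 17.9, 20.0 and 19.7 at 0 h (0.94, adjusted p = 0.0397). A ZP3AR copy of 56 bases in an intron of Ccdc7a, chr8:128736851-128736906, had 35.4, 29.4 and 32.9 at 48 h, against 0.813, 1.66 and 2.57 at 0 h (3.70, adjusted p = 1.18e-05). It was also called at 12 h (2.22) and 24 h (3.47), while the gene unit Ccdc7a averaged 4.07 scaled reads at 48 h and 5.29 at 0 h. Another ZP3AR copy, chr5:136943934-136944231, fell by 1.10 on the log2 scale (adjusted p = 0.000992), with means of 12.6 at 48 h and 28.1 at 0 h.

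An IMPB_01 copy in an intron of Lifr, the receptor for LIF, fell by 1.59 on the log2 scale (adjusted p = 0.00248), with means of 4.07 scaled reads at 48 h and 13.6 at 0 h. The gene unit Lifr itself fell by 0.99 (adjusted p = 3.11e-14). The 2 densest IMPB_01 copies, on chromosome 12, did not pass the test: chr12:19983470-19983555 had means of 28.5 at 48 h and 33.4 at 0 h, and chr12:24067741-24067802, in an intron of 9030624G23Rik, 15.8 at 48 h and 8.58 at 0 h. The tested SUBTEL_sa copy, in an intron of Cnot2, had means of 16.7 at 48 h and 18.02 at 0 h.

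Of 187 tested MMSAT4 copies 3 were called higher and 13 lower at 48 h, with a median change of -0.22 beside -0.07 over all tested copies. At that time 26.0% of all tested copies were higher and 12.3% lower. The 3 that rose lie in exons of Gm21060 (0.86), Zfp985 (0.70) and Zfp978 (0.59). The Gm21060 copy had 59.1, 68.2 and 77.9 scaled reads at 48 h, against 40.6, 35.8 and 35.1 at 0 h, with no overlap. The 3 that fell most lie in an intron of Zfp973 (-1.49), in the Zfp965 exon whose sequence is shown above (-1.45) and 215 bases from Gm14305 (-1.25), all in the zinc-finger gene cluster of distal chromosome 2. The Zfp965 copy had 17.7, 5.42 and 7.64 scaled reads at 48 h, against 23.6, 31.6 and 25.7 at 0 h. The copies with the most signal per kilobase were chr4:146717972-146720845, with 1927, 2012 and 1933 scaled reads at 48 h, against 1910, 2284 and 1876 at 0 h (-0.04, adjusted p = 0.871), and chr13:66431841-66432062 in an exon of 2410141K09Rik (-0.20, adjusted p = 0.921), a copy listed at 0 in the 3 h replicate 3 library and at 106 and 108 in the other 3 h libraries. After rescaling, the copies of all satellites other than GSAT_MM called at 48 h numbered 19 higher and 7 lower, in place of 6 higher and 15 lower. The median of all tested copies moved to 0.27 under the same rescaling, and the shares of all tested copies then called were not worked out. The 15 lower calls became 9 when 0 h replicate 2 or 48 h replicate 1 was left out, and 12 without the 3 libraries that list many copies at 0.

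At 12 h, 12 MMSAT4 copies were called higher and 1, in an exon of Zfp59, lower, beside 20.8% and 1.83% of all tested copies. The higher calls of all satellites other than GSAT_MM, 13 at 12 h, became 7 without 12 h replicate 2, and the 1 lower call became 0 to 3 in other settings. At 24 h, beside 25.4% higher and 6.25% lower over all tested copies, 4 were higher, in Gm21060 (a pair of copies), Zfp978 and Zfp985, and 6 lower. For all satellites other than GSAT_MM the 6 higher calls at 24 h became 10 without 24 h replicate 1, and the 6 lower calls 14 without 24 h replicate 2. Of the tested MMSAT4 copies, 54 overlap a tested gene unit on the same strand. Such a copy shares sequence with the gene unit and is no separate measure of satellite transcription. In 42 of the 54 the copy and at least 1 overlapping unit changed with the same sign at 48 h. Most of these copies and most of the units had negative changes, so many shared signs follow from that alone. The share to be had from it was not worked out, and the count is a description. Over all pairs of copy and unit the log2 changes had a Pearson r of 0.316.

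**Figure D4:**
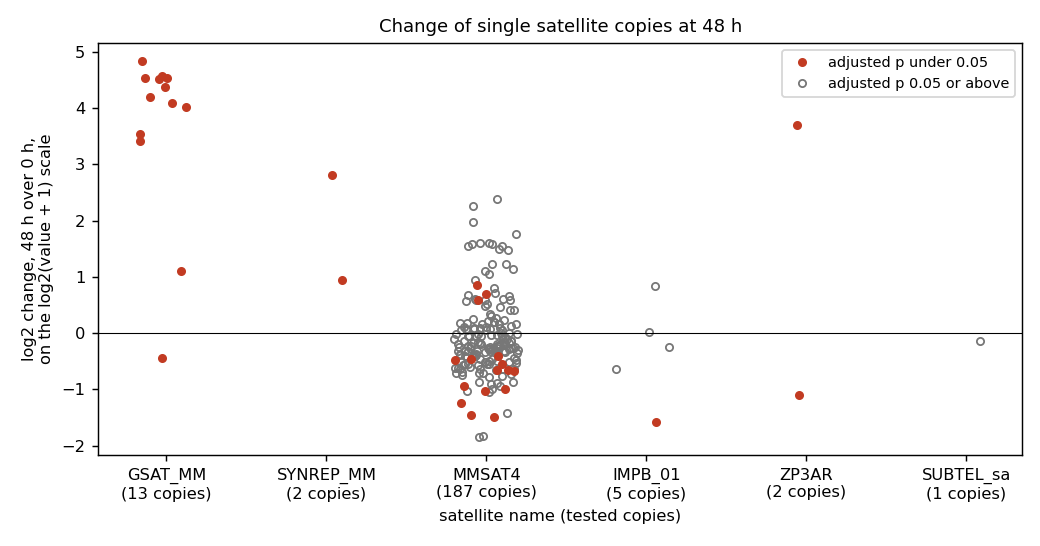
Log2 change at 48 h over 0 h, on the log2(value + 1) scale, of every tested satellite copy by name (filled red, adjusted p under 0.05; open grey, 0.05 or above; sideways spread within a name is only for display). The GSAT_MM points lie between 3.42 and 4.82 apart from 2 at 1.10 and -0.44, and the 187 MMSAT4 points centre on -0.22.

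The repeat families whose log2 profiles over the 15 libraries were most like that of GSAT_MM were ETnERV3-int (Pearson r = 0.987), RLTR13E (0.986), IAPLTR1_Mm (0.986), IAPLTR1a_Mm (0.985) and MERVL-int (0.985), all of them endogenous retroviral sequences. Their log2 changes at 48 h were 2.91, 2.25, 3.17, 3.82 and 3.06. The libraries are shared by all families, so these correlations are descriptive.

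Genes whose proteins act on pericentromeric chromatin were measured in the same libraries. At 48 h 7.65% of 15261 tested genes were called higher and 58.4% lower, so counts of falling genes are read against that share. Counts after rescaling are given too. The shares of all genes called after rescaling were not worked out, so those counts have no such background. Of 6 H3K9 methyltransferase genes 4 were lower (Suv39h2, Setdb2, Ehmt1 and Ehmt2), with a list median of -0.38 beside -0.37 over all genes. After rescaling 2 were higher (Suv39h1 and Setdb1) and 2 lower (Setdb2 and Ehmt2), with a list median of -0.019 beside -0.008 over all genes. The gene unit Suv39h1 averaged 455 ± 23 scaled reads at 48 h and 483 ± 36 at 0 h (SD, n = 3 each). Suv39h2 averaged 803 ± 69 in 48 h cells and 1091 ± 73 in 0 h cells. Setdb1 averaged 732 ± 46 in 48 h cells and 846 ± 25 in 0 h cells. These are RNA values, and protein loss by a degron leaves no direct trace in them.

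Of 28 tested genes for pericentromeric heterochromatin proteins 23 were lower at 48 h, among them Trim28, the corepressor (-0.66), Cbx1, which encodes an HP1 protein (-0.64), and Eed, a Polycomb subunit (-0.55). After rescaling, 5 were higher and 10 lower, with a list median of -0.07 beside -0.008 over all genes. Of 14 centromere protein genes 12 were lower, led by Cenpm (-1.05) and Cenpt (-0.68). Rescaled, 2 were higher and 3 lower, with a list median of -0.011. The shares of all genes called after rescaling were not worked out. limma called 0 of these 48 genes higher, also at an unadjusted p under 0.05, and edgeR called 0.

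The 2-cell-like genes, which mark a rare ES cell state in which MERVL and the Zscan4 cluster are active, also rose. Of 20 listed genes 10 had enough signal to test and all 10 were higher at 48 h, under both scalings. Under the deposited scaling 7.65% of all tested genes were higher. Zscan4b and Zscan4c, with means of 4.98 and 5.29 scaled reads at 0 h, passed the minimum only through later times. The count of 10 is therefore a description. Zscan4f averaged 569 ± 82 scaled reads at 48 h, against 14.2 ± 2.3 at 0 h. Zscan4d averaged 420 ± 35 at 48 h, against 12.8 ± 3.0 at 0 h. Of 8 pluripotency genes 7 were lower, such as Pou5f1 (-1.08) and Tfcp2l1 (-1.09), and Zfp42 was higher (0.86). Their part in the rise of GSAT_MM was not tested.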

How the data were processed

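TT-seq libraries of 1 ES cell line at 5 times (3 biological repeats each, 30 deposited runs combined into 15 libraries) were analysed. The submitters' processing notes list STAR (2.5.2a), DESeq2 and deepTools, and the builds mm10 and GRCm38, with no role for each. The deposited signal is reads per unit divided by 1 factor a library, not by length: per library, 99.9972% to 99.9995% of values, and 100% of satellite values, were whole multiples of its smallest step (0.636 to 0.936; tolerance 0.05), which gave whole reads back. The design text gives a yeast RNA spike-in for adjusting signal between times; whether the factors rest on it was not checked. A table of the authors holds averages per kilobase and calls. The counter, its strand setting and its handling of reads with several positions are stated in no label or header, so values of single near-identical copies are uncertain.

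Copies, families (sums over a repeat name) and genes were each tested with limma 3.58.1 (intensity trend, R 4.3.3) on log2(value + 1), 15 libraries in 1 fit, each later time against 0 h, for features with a mean of at least 10: 13519 copies, 774 families and 15261 genes. Fold changes are on that scale, which understates changes of low features. A call is a two-sided Benjamini-Hochberg adjusted p under 0.05 within the class. GSAT_MM was set against the other satellites on the within-library log2 ratio. The test was checked on simulated reads. edgeR 4.0.16, DESeq2 1.42.0, other scalings, pseudocounts, minimums and left-out libraries were alternatives.

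Members and lists were chosen with earlier results of these data known. Named members were all satellite names with a mean of at least 10, all tested GSAT_MM and SYNREP_MM copies, and of each other name the 3 copies with the largest called rise, the 3 with the largest called fall at 48 h and the 2 densest. Of each gene list, the targeted genes and up to 4 with the smallest adjusted p were eligible; other genes named beside a copy were chosen after their values were seen. Repeat coordinates were shifted to count from 1. Sequence was read from GENCODE M21 transcripts and RefSeq promoter windows.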

Additional observations from a re-analysis of the deposited data

How the results depend on the processing

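At 12, 24 and 48 h the rise of GSAT_MM, alone and against the other satellites, kept its direction and its call in all 31 alternatives each. Leaving out each library in turn, the log2 change at 48 h ran from 3.19 to 3.27 alone and from 3.34 to 3.45 against the other satellites. At 3 h, where no change was called, the GSAT_MM value of -0.19 turned to 0.0477 under the rescaling over genes and 0.0469 under TMM, and without the 2 copies that changed least (an alternative chosen after seeing the data) the value against the other satellites passed the test at 0.27. GSAT_MM copies called higher numbered 19 at 24 h and 35 at 48 h with no minimum, and 7 at each with a minimum at 0 h alone, in place of 12; without single libraries they ran from 11 to 12 at 24 h and stayed 12 at 48 h. The strand difference was -1.86 (exact permutation p = 0.10) for 48 h against 0 h alone, and 0.0244 without the 2 copies. Over genes, deviations of libraries with the same replicate number had correlations between -0.04 and 0.08, so the numbers were not taken as pairs, although the replicate 3 libraries at 0, 3 and 24 h share MMSAT4 copies listed at 0. The replicate block changed no call of a family, ratio or step: GSAT_MM stayed at 3.23 at 48 h (limma adjusted p = 1.39e-169). Silencing genes called at 48 h were 39 lower and 0 higher of 48, where 58.4% of all tested genes were lower and 7.65% higher. They became 15 lower and 9 higher after rescaling and 18 lower and 9 higher with TMM. When only the times compared were fitted, 1 was higher. The shares of all genes under these other settings were not worked out.

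Names with no called change at 48 h turned direction under some settings. At 48 h, rescaling and TMM gave 0.20 and 0.18 for MMSAT4, 0.19 and 0.17 for IMPB_01, 0.0950 and 0.0815 for ZP3AR, and 0.18 and 0.17 for SUBTEL_sa. At 3 h IMPB_01 became 0.0233 and 0.0225. At 24 h MMSAT4 became 0.0182 and 0.0223, and 0.00541 without copies overlapping a gene, and SUBTEL_sa became -0.000659 with a pseudocount of 0.5. Without those 3 libraries, MMSAT4 became 0.00273 and SUBTEL_sa -0.0597 at 24 h. Leaving out single libraries, the 24 h values ran from -0.22 to 0.0257 for MMSAT4, -0.14 to 0.14 for IMPB_01, -0.25 to 0.17 for SUBTEL_sa and -0.0014 to 0.17 for ZP3AR, and SUBTEL_sa at 48 h from -0.40 to 0.0577. The cause was not tested. Depth limits single copies: most satellite copies had under 10 scaled reads and were not tested.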

Other observations

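One MMSAT4 copy, chr12:19499792-19500000, had 76.1 and 111 scaled reads in 2 of the 3 libraries at 12 h and 0 in the other 13 libraries, so it passed the minimum only through 12 h. The GSAT_MM copy chr12:74803838-74804505 had a mean of 4.8 scaled reads at 48 h and no read at 0 h. It lies inside the non-coding unit chr12:74779001-74813001 on the same strand, which averaged 2.8, 11.6, 247, 631 and 955 scaled reads at 0, 3, 12, 24 and 48 h.

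The non-coding unit chr12:3109601-3110801 on the minus strand averaged 417 scaled reads at 48 h and 196 at 0 h, a ratio of 2.1, over a GSAT_MM copy annotated on the plus strand. The unit chr2:98662201-98665201, also on the minus strand, averaged 2054 at 48 h and 831 at 0 h and holds 3 GSAT_MM copies, 2 of them on the minus strand.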
